A study of Rattus norvegicus with 4 samples.

Results

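The 8 genes described here belong to the lymphatic vessel and to the chemokine system that guides immune cells into it, and were chosen by their symbol from the 22050 genes in the files on rat lung. They were Prox1, Lyve1, Reln and Mmrn1 of the lymphatic endothelium, the chemokines Ccl19 and Ccl21, their signalling receptor Ccr7, and Ackr4, an atypical receptor that takes up the same chemokines. Each of the 8 symbols matched 1 gene. Ackr4 was picked because its counts were lower in both bleomycin libraries than in both controls, and the other members were listed with results of the same comparison known. Their differences between the groups are therefore given as a description, with no test.

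Messenger RNA was measured by sequencing in whole lung of SD rats, the Sprague-Dawley strain. The bleomycin group, n = 2, received 1 intratracheal dose of 5 mg/kg in 0.2 mL, and the control group, n = 2, the same volume of normal saline. All lungs were taken on day 28, and each library came from 1 rat per the labels. The age and sex of the animals are not given in the labels. Bleomycin is a DNA-breaking antitumour antibiotic used in rodents to induce lung fibrosis. Where a pair of values is given for a group, replicate 1 comes before replicate 2. Total counts ran from 34683699 to 44381111 per library, so that 3 counts corresponded to 0.0676 to 0.0865 CPM of the library total. Levels are given in CPM, counts scaled to the library size after TMM normalization. Defining lung markers were present in every library, among them Ager of alveolar type 1 cells, with a lowest value of 763.3 CPM.

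Lymphatic capillaries begin blindly in the lung interstitium around airways and vessels and drain fluid and immune cells towards lymph nodes. Their endothelial cells secrete CCL21, which stays bound to matrix through a charged tail, while CCL19 diffuses freely. Dendritic cells and naive T cells that carry CCR7 move up gradients of both chemokines. ACKR4 binds the same ligands without coupling to G proteins and delivers them to lysosomes, and in mice its loss has been found to disturb such gradients.

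In bleomycin-treated lungs the 8 genes went different ways. Prox1, Reln, Mmrn1, Ccl19 and Ccl21 had higher levels in both bleomycin libraries than in both controls, Lyve1 and Ackr4 had lower ones, and the groups overlapped for Ccr7. All 8 members passed the filter on low counts, which left 15709 tested genes. For genes outside the 8, a call is an adjusted p under 0.05 in edgeR's quasi-likelihood test, which 9.26% of all tested genes met as higher and 7.79% as lower, 17.0% in either direction. The 2 groups did not overlap for 7 of the 8 members, against 68.5% of all tested genes, and since the members were chosen from this comparison nothing is read from that count; 5 members lay above both controls (35.1% of all tested genes did) and 2 below them (33.4%). The members' log2 changes (bleomycin over control) ran from -3.16 for Ackr4 to 1.5 for Reln with a median of 0.64, beside a median of 0.01 over all tested genes.

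**Figure D1:**
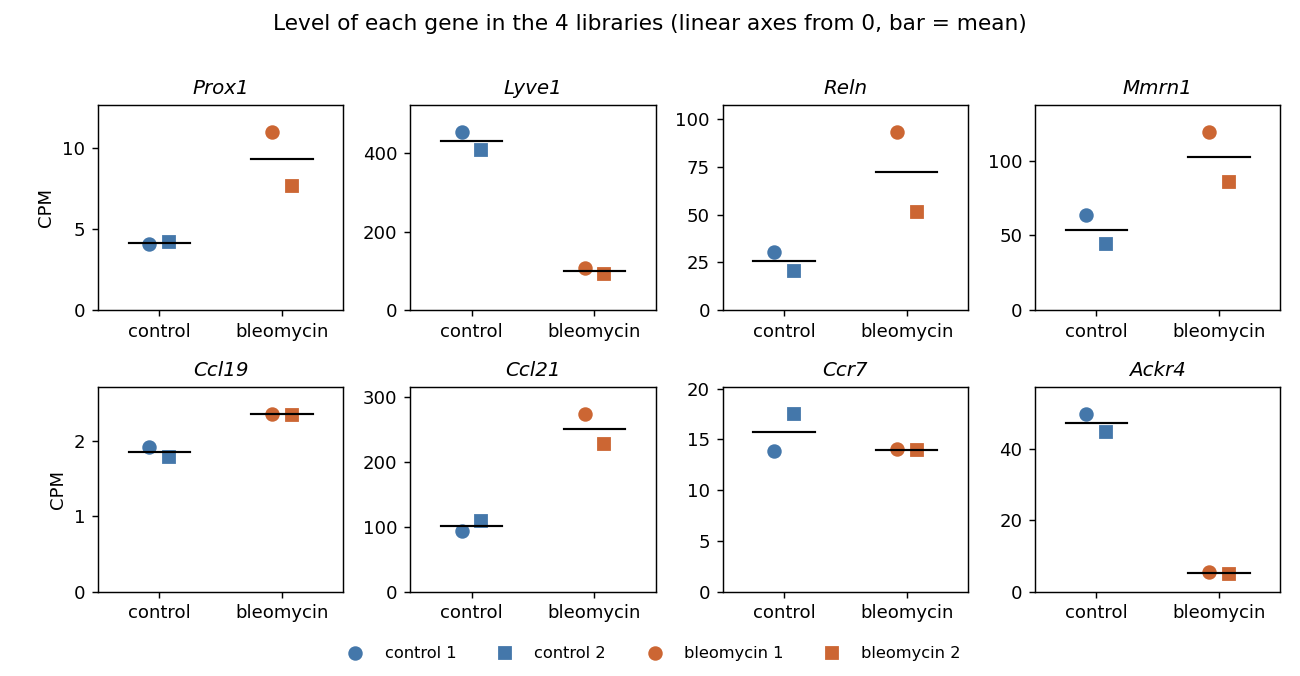
Level of each of the 8 genes in CPM (vertical axes, linear, each with its own range from 0) in the 2 control and 2 bleomycin libraries; points are libraries and bars are group means. Prox1, Reln, Mmrn1, Ccl19 and Ccl21 lay above both controls in both bleomycin libraries, Lyve1 and Ackr4 below them, and the groups overlapped for Ccr7.

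Prox1 (ENSRNOG00000003694) encodes the homeobox transcription factor that sets and keeps lymphatic endothelial identity. It had 4.05 and 4.19 CPM in the controls and 10.97 and 7.64 CPM in the bleomycin libraries. Both bleomycin libraries lay above both controls, which were close to each other, and bleomycin replicate 1 was the higher. The group values were 9.31 ± 2.35 CPM against 4.12 ± 0.0993 CPM (SD, n = 2 each), a 2.25-fold difference with a log2 change of 1.17 ± 0.25 (here and below, ± on a log2 change is the standard error of the fit). Prox1 is also expressed in heart muscle and neuroendocrine cells of rodents. The summed level of 11 heart muscle markers was 231 and 43.1 CPM in the controls and 136 and 87.5 CPM in the bleomycin libraries, so that the bleomycin values lay between those of the controls. Of 10 tested heart markers none was called by edgeR or by DESeq2, and none had an unadjusted p under 0.05 in edgeR, a count of 0 in each case. Myh6, a heart myosin gene, had 77.3 and 2.50 CPM in the controls and 18.6 CPM in each bleomycin library, and Actc1, cardiac actin, was at 45.4 ± 29.3 CPM in bleomycin and 35.96 ± 8.25 CPM in control (edgeR adjusted p = 0.636). Of the 7 neuroendocrine markers found, 4 passed the filter. Resp18, a secretory granule gene, rose from 0.696 ± 0.0843 to 2.47 ± 0.158 CPM (edgeR adjusted p = 0.0271), while Calca, the calcitonin gene, was not called at 1.63 ± 0.804 CPM in bleomycin and 0.964 ± 0.257 CPM in control (edgeR adjusted p = 0.32). Their sum over all 7 was 3.13 and 3.05 CPM in the controls and 5.72 and 8.48 CPM in the bleomycin libraries, above both controls. The part of heart muscle and neuroendocrine RNA in the Prox1 result was not tested.

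Reln (ENSRNOG00000021441) encodes reelin, a large secreted glycoprotein that lymphatic endothelial cells release and that signals through the lipoprotein receptors VLDLR and LRP8. It had 30.5 and 20.6 CPM in the controls and 93.2 and 51.3 CPM in the bleomycin libraries. The groups did not overlap, but the bleomycin libraries differed from each other by more than the lower of them differed from either control. The log2 change was 1.5 ± 0.34, or 2.83-fold, and 1.00 without bleomycin replicate 1. Mmrn1 (ENSRNOG00000024986) encodes multimerin 1, a secreted protein of lymphatic endothelium and platelets. It had 63.4 and 44.5 CPM in the controls and 119.2 and 85.5 CPM in the bleomycin libraries, with a log2 change of 0.93 ± 0.24 (1.90-fold). Again replicate 1 was the higher in each group. The log2 change was 1.13 without bleomycin replicate 2, and leaving out each library in turn gave 0.66 to 1.19.

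Of 9 platelet and megakaryocyte markers, Itga2b, Itgb3 and Gp6 fell and the other 6 were not called, with a median log2 change of -1.42. Their summed level was 81.0 and 103.7 CPM in the controls and 71.7 and 58.5 CPM in the bleomycin libraries. Pf4, the platelet chemokine, was the marker with values above both controls, at 29.8 ± 9.46 CPM in bleomycin and 16.6 ± 4.36 CPM in control (edgeR adjusted p = 0.103). The part of platelet RNA in the Mmrn1 result was not tested.

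Lyve1 (ENSRNOG00000026902), the hyaluronan receptor that is the usual marker of lymphatic capillaries, differed in the other direction. It had 453.6 and 407.2 CPM in the controls and 107.3 and 91.1 CPM in the bleomycin libraries. The groups were far apart against the spread within either. The log2 change was -2.12 ± 0.14, or 4.34-fold lower, and 1.03% of tested genes had a lower one. Per length, on the deposited FPKM scale (fragments scaled to transcript length and library total), Lyve1 in controls was at 139.5 ± 10.01 and Prox1 at 0.57 ± 0.0141, a ratio of 262 and 228 in the 2 controls.

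Lyve1 is not particular to lymphatic vessels: in rodents it is also made by a class of interstitial macrophages and by some blood endothelium. Of 12 tested blood endothelial markers, 7 fell, 1 rose and 4 were not called, with a median log2 change of -0.91. Their summed level was 7284 and 6144 CPM in the controls and 2717 and 3684 CPM in the bleomycin libraries, below both controls. Egfl7, a secreted endothelial factor, was the marker that rose and was chosen after its values were seen; it went from 164.2 ± 8.32 to 248.7 ± 26.4 CPM (edgeR adjusted p = 0.0340). Plvap, a component of endothelial diaphragms, fell from 1449 ± 234 to 326.8 ± 119 CPM (edgeR adjusted p = 0.0175). Vwf, von Willebrand factor, fell by 1.02 on the log2 scale with an edgeR adjusted p of 0.0174. Kdr, the blood endothelial receptor for VEGF-A, was singled out after its level was seen. Its log2 change of -1.51 was a larger fall than the list median and than that of Vwf. Ratios over Kdr therefore lie higher in bleomycin than ratios over a marker that fell less, and ratios over other blood endothelial markers are not given. Set against Kdr, the CPM ratio of Lyve1 was 0.586 and 0.603 in the controls, 0.623 in bleomycin replicate 1 and 0.270 in bleomycin replicate 2. Prox1 over Kdr was 0.00524 and 0.00621 in the controls against 0.0636 and 0.0227 in the bleomycin libraries. In bleomycin replicates 1 and 2 Lyve1 was at 107.3 and 91.1 CPM, beside summed endothelial levels of 2717 and 3684 CPM. Nothing is read from this difference between single libraries. The part of blood endothelial RNA in the Lyve1 result was not tested. In bulk tissue, fewer cells of a type and less RNA per cell cannot be told apart.

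Of 7 tested interstitial macrophage markers, Folr2, Cd163 and Cd68 rose and the other 4 were not called; the summed level was 928 and 1047 CPM in the controls and 1496 and 1205 CPM in the bleomycin libraries. Mrc1, the mannose receptor, was at 590.7 ± 18.9 CPM in bleomycin and 465.3 ± 2.21 CPM in control (edgeR adjusted p = 0.0909), and Csf1r, the macrophage growth factor receptor, at 346.1 ± 32.5 CPM in bleomycin and 395.5 ± 55.4 CPM in control (edgeR adjusted p = 0.394). Folr2 and Cd163 are markers of the macrophages that carry Lyve1 in mice, and the part of these cells in the Lyve1 result was not tested.

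The chemokines Ccl19 and Ccl21 stand close together in the genome, with 1 annotated gene between them in the RefSeq table of assembly GRCr8. The 100 bases before each annotated start (RefSeq, build GRCr8) are shown because the 2 ligands share a receptor and a neighbourhood while their levels differ widely. Capitals mark ATAAAT, an A/T-rich stretch chosen after the sequences were seen, and each line runs 5′ to 3′ on the gene's own strand, minus for both. Ccl19 is at chr5:61761165-61761264 and Ccl21 at chr5:61777516-61777615.
Ccl19: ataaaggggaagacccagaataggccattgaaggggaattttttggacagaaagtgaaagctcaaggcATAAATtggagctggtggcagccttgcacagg
Ccl21: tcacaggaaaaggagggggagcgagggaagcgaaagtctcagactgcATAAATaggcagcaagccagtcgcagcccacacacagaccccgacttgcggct
On either strand of the 250 bases before the start, ATAAAT matched in 13.1% of 27456 promoters in the table, 2 times at Ccl19, 1 time at Ccl21 and 1 time at Lyve1, whose sequence is shown with that of Ackr4. Neither ligand's window held TATAAA (13.1% of promoters), the GC box GGGCGG (32.4%) or a match to the NF-kappaB consensus (6.42%), both strands searched.

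Ccl21 (ENSRNOG00000034290) had 92.9 and 108.6 CPM in the controls and 273.7 and 227.1 CPM in the bleomycin libraries. The groups did not overlap, and the spread within each was small against the gap between them. The group values were 250.4 ± 33.0 CPM against 100.7 ± 11.1 CPM, a 2.49-fold difference and a log2 change of 1.31 ± 0.15. Ccl19 (ENSRNOG00000015668) was near the bottom of the range, with 66 and 78 counts in the controls and 93 and 103 in the bleomycin libraries. That gave 1.91 and 1.79 CPM against 2.36 and 2.34 CPM, and a log2 change of 0.35 ± 0.27. Exact 95% Poisson intervals, which cover counting error only, ran from 1.48 to 2.43 CPM in control replicate 1 and from 1.90 to 2.89 CPM in bleomycin replicate 1. These intervals overlapped, although the groups did not.

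The ligand most abundant in these lungs was Ccl21. Per length its FPKM was 44.3 and 55.4 times that of Ccl19 in the controls and 106 and 88.5 times in the bleomycin libraries. The RefSeq table lists 1 Ccl21 gene for rat; mice carry near-identical copies, and how reads of any such copy were counted is not stated in the labels.

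Ccr7 (ENSRNOG00000010665) had 13.9 and 17.5 CPM in the controls and 14.0 and 13.9 CPM in the bleomycin libraries. The groups overlapped, and the bleomycin libraries lay next to the lower control. The log2 change was -0.17 ± 0.16, and 0.01 without control replicate 2. The ratio of Ccl21 to Ccr7 in CPM was 6.70 and 6.19 in the controls and 19.5 and 16.3 in the bleomycin libraries. In the RefSeq table Ccr7 overlaps 1 other annotated gene, and reads of either could have been counted for the other.

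Ackr4 (ENSRNOG00000011478) had the largest difference of the 8. It had 49.8 and 44.6 CPM in control replicates 1 and 2, from 1719 and 1946 counts, and 5.47 and 5.10 CPM in bleomycin replicates 1 and 2, from 216 and 225 counts. Replicates lay close together in both groups, and the highest bleomycin value was far below the lowest control value. The group values were 5.29 ± 0.259 CPM against 47.2 ± 3.66 CPM, 8.92-fold lower with a log2 change of -3.16 ± 0.14. Of the 15709 tested genes, 34 had a lower log2 change. Leaving out each library in turn gave -3.23 to -3.09.

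The 100 bases before the annotated start of Lyve1 and Ackr4, the 2 members with lower levels, are shown for comparison with the ligands, in RefSeq build GRCr8 on the minus strand. Lyve1 is at chr1:174410978-174411077 and Ackr4 at chr8:113599763-113599862.
Lyve1: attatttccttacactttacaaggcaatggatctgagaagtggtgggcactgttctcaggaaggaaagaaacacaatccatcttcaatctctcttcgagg
Ackr4: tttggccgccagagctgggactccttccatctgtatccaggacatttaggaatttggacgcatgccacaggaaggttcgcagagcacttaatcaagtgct
No capitals appear because none of the searched letters fell in these stretches; the ATAAAT match of Lyve1 lies elsewhere in its 250-base window, and Ackr4 had none there. The 250-base windows held 41.6% G and C at Lyve1 and 58.8% at Ackr4, around the median of 52.0% over all promoters in the table. Promoters were matched for 6 of the 8 members.

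In the RefSeq table Ackr4 overlaps Acad11, an acyl-CoA dehydrogenase gene on the opposite strand, and the library protocol describes no strand-marking step. Acad11 had 79.1 and 73.0 CPM in the controls and 42.7 and 52.5 CPM in the bleomycin libraries, and fell 1.60-fold (edgeR adjusted p = 0.0324). The ratio of Ackr4 to Acad11 was 0.629 and 0.611 in the controls and 0.128 and 0.0972 in the bleomycin libraries. Ackr4 was picked for its fall, so such a ratio falls over any gene that did not fall as far, and nothing is read from it. Reads of either gene could have been counted for the other. The Reln locus likewise overlaps 3 other annotated genes.

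Outside lymphatic vessels ACKR4 is made in mice by keratinocytes, thymic epithelium and some fibroblasts. Of 7 adventitial fibroblast markers Dpp4 fell and the other 6 were not called; the summed level was 930.4 and 835.5 CPM in the controls and 959.2 and 853.4 CPM in the bleomycin libraries, with no separation of the groups. Dpt, which encodes the matrix protein dermatopontin, was at 221.8 ± 26.2 CPM in bleomycin and 167.5 ± 2.86 CPM in control (edgeR adjusted p = 0.0783), and the growth factor receptor gene Pdgfra at 178.3 ± 26.9 CPM in bleomycin and 191.4 ± 62.1 CPM in control (edgeR adjusted p = 0.795). All 6 alveolar type 1 cell markers fell, with a median log2 change of -1.37. Their summed level was 7184 and 7528 CPM in the controls and 2376 and 3593 CPM in the bleomycin libraries. Ager fell from 2404 ± 196 to 938.7 ± 248 CPM (edgeR adjusted p = 0.0226) and the chloride channel gene Clic5 from 1893 ± 117 to 814.7 ± 320 CPM (edgeR adjusted p = 0.0467). The part of this epithelium in the Ackr4 result was not tested. Set against Kdr, the CPM ratio of Ackr4 was 0.0643 and 0.0661 in the controls and 0.0317 and 0.0152 in the bleomycin libraries. That ratio was 2.97-fold lower in bleomycin, as it would be over any gene that fell less than Ackr4, which was picked for its fall. The part of blood endothelial RNA in the Ackr4 result was not tested either.

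**Figure D2:**
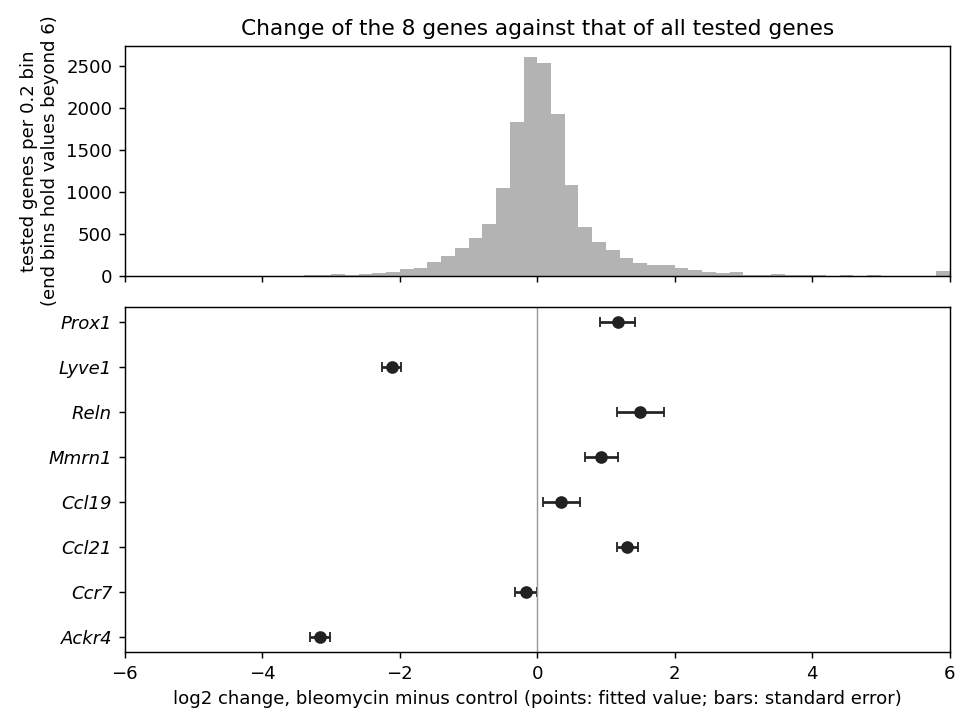
Top, number of tested genes by log2 change of bleomycin over control in bins of 0.2, with the values beyond 6 in the end bins; bottom, fitted log2 change (points) and standard error (bars) of the 8 genes on the same horizontal axis. Ackr4 at -3.16 and Lyve1 at -2.12 lie in the thin left tail, Ccr7 at -0.17 and Ccl19 at 0.35 within the bulk, and the other 4 between 0.93 and 1.5.

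Ratios within a library do not depend on how libraries are scaled, and those taken over Prox1 split the members shown. Ccl19, Ccr7 and the lymphatic marker Flt4 were not set against Prox1. Their log2 changes of 0.35, -0.17 and 0.43 were below the 1.17 of Prox1. Reln over Prox1 was 7.54 and 4.92 in the controls and 8.499 and 6.71 in the bleomycin libraries. Mmrn1 over Prox1 was 15.6 and 10.6 against 10.9 and 11.2, and Ccl21 over Prox1 was 22.9 and 25.9 against 24.96 and 29.7. For these 3 ratios the groups overlapped. Lyve1 over Prox1 was 112 and 97.1 in the controls and 9.79 and 11.9 in the bleomycin libraries, and Ackr4 over Prox1 was 12.3 and 10.6 against 0.499 and 0.668.

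Ratios of the ligands and of Ccr7 to Ackr4 were higher in bleomycin. Ackr4 was picked for its fall, so such a ratio rises for any gene that did not fall as far. Ccl21 over Ackr4 in CPM was 1.87 and 2.43 in the controls and 50.04 and 44.5 in the bleomycin libraries, a 22.1-fold higher ratio. Ccr7 over Ackr4 was 0.279 and 0.393 in the controls and 2.56 and 2.72 in the bleomycin libraries, a 7.99-fold higher ratio. Per length, in FPKM, Ccr7 stood at 0.394 and 0.556 times Ackr4 in the controls and at 3.62 and 3.86 times Ackr4 in the bleomycin libraries, so the order of these receptors was the opposite in the 2 groups. Ccl19 over Ackr4 in CPM was 0.0384 and 0.0401 in the controls and 0.431 and 0.458 in the bleomycin libraries.

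**Figure D3:**
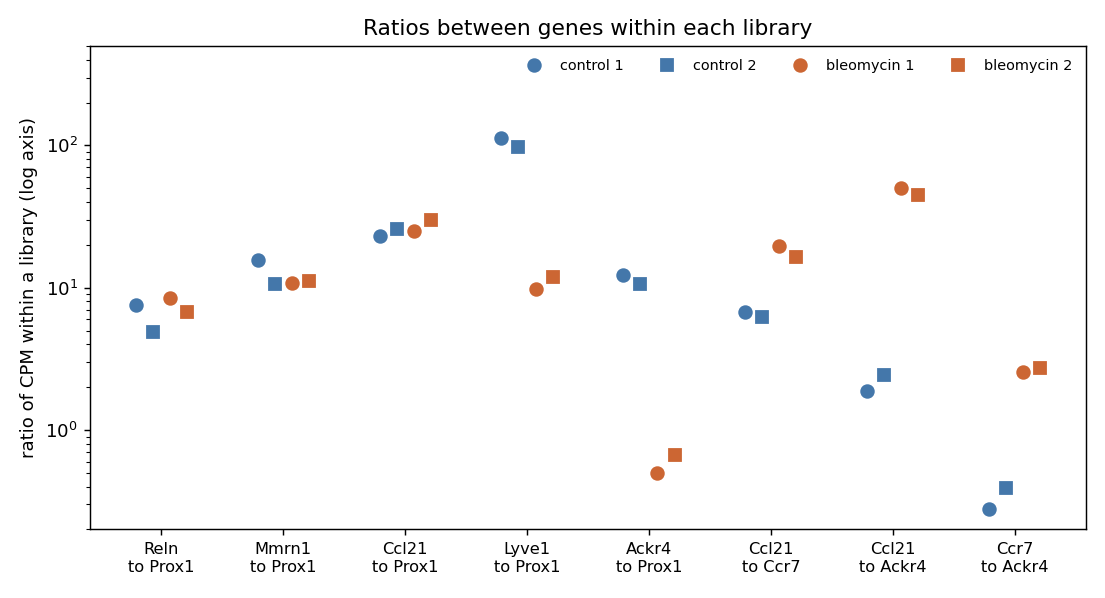
Ratio of CPM between pairs of genes within each library (vertical log axis) for the 2 control and 2 bleomycin libraries. Reln, Mmrn1 and Ccl21 over Prox1 overlap between the groups, Lyve1 over Prox1 is 97.1 or more in the controls and 11.9 or less in the bleomycin libraries, and Ccl21 over Ackr4 is 2.43 or less and 44.5 or more.

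On the FPKM scale, which allows comparison between genes, the order of levels in the controls was Lyve1 at 139.5 ± 10.01, Ccl21 at 120.4 ± 13.8, Ackr4 at 23.4 ± 1.70, Mmrn1 at 11.7 ± 2.84, Ccr7 at 11 ± 1.87, Ccl19 at 2.42 ± 0.106, Reln at 2.38 ± 0.643 and Prox1 at 0.57 ± 0.0141. Mmrn1 and Ccr7 overlapped, as did Ccl19 and Reln, and the other neighbours in this order did not. In the bleomycin libraries Ccl21 led at 299.9 ± 42.6 FPKM, followed by Lyve1 at 32.2 ± 4.07 and Mmrn1 at 22.3 ± 5.41. Ccr7 at 9.80 ± 0.163, Reln at 6.75 ± 2.84 and Ccl19 at 3.08 ± 0.0495 FPKM came next. Ackr4, which ranked 3 of 8 in the controls, ranked 7 at 2.62 ± 0.163 FPKM, above Prox1 at 1.29 ± 0.339.

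Among the 74 symbols of 6 related lists, 65 genes were tested, of which 9 rose and 8 fell, with a median log2 change of 0.11. No member is in these lists. With either control left out, no gene of these lists was called in either direction by edgeR, while at an unadjusted p under 0.05 there were 13 higher and 8 lower without control replicate 1 and 11 and 9 without control replicate 2. DESeq2 on all 4 libraries called 13 higher and 12 lower.

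Other lymphatic endothelial markers were split. Of 15 tested, 3 rose, 1 fell and 11 were not called, with a median log2 change of -0.03. Foxc2, a transcription factor of lymphatic valves and collecting vessels, was at 2.92 ± 0.5995 CPM against 0.648 ± 0.107 CPM, a log2 change of 2.18 ± 0.37 (edgeR adjusted p = 0.0237). Maf, a transcription factor of lymphatic endothelium and macrophages, rose by 1.73 ± 0.24 (edgeR adjusted p = 0.0177), and Stab1, a scavenger receptor of both cell types, by 1.70 ± 0.25 (edgeR adjusted p = 0.0191). Outside the naming rule, and chosen after their values were seen, Flt4 and Pdpn are the defining markers left. Flt4, the receptor VEGFR-3, had 55.8 and 52.9 CPM in the controls and 80.0 and 66.5 CPM in the bleomycin libraries (edgeR adjusted p = 0.0722). Pdpn, podoplanin, which alveolar type 1 cells also make, fell by 0.55 on the log2 scale (edgeR adjusted p = 0.0466). Set against Kdr, the CPM ratio of Flt4 was 0.0721 and 0.0784 in the controls and 0.464 and 0.197 in the bleomycin libraries. Kdr itself had a log2 change of -1.51, so this ratio rises for any gene that did not fall as far.

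Among 15 tested growth factors and regulators of lymphatic vessels, 1 rose and 5 fell, with a median log2 change of -0.17. Vegfd, which encodes a ligand of VEGFR-3, had 13.8 and 11.1 CPM in the controls and 38.8 and 29.6 CPM in the bleomycin libraries, a rise of 1.46 ± 0.19 on the log2 scale (edgeR adjusted p = 0.0166). The other ligand, Vegfc, singled out after its level was seen, had 16.3 ± 0.761 CPM against 18.4 ± 1.56 CPM (edgeR adjusted p = 0.408). Tek, the angiopoietin receptor TIE2 of blood and lymphatic endothelium, fell from 844.9 ± 134 to 227.6 ± 53.5 CPM (edgeR adjusted p = 0.0132). Ramp2, a subunit of the adrenomedullin receptor, fell from 341.0 ± 16.0 to 128.6 ± 28.0 CPM (edgeR adjusted p = 0.0150). Vegfa, Calcrl and Gata2 were the other 3 that fell, and all 5 are also expressed by blood endothelium or alveolar epithelium.

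Of the reelin receptors and adaptor, Lrp8 rose from 3.93 ± 0.150 to 10.8 ± 3.33 CPM (edgeR adjusted p = 0.0297). Vldlr was at 50.9 ± 1.49 CPM in bleomycin and 61.8 ± 1.82 CPM in control (edgeR adjusted p = 0.102), and the adaptor gene Dab1 was under 1 CPM in every library (edgeR adjusted p = 0.992).

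Of 13 tested genes of other atypical receptors and homeostatic chemokines, 2 rose and 1 fell, with a median log2 change of 0.27. Ccrl2, an atypical receptor that binds chemerin, fell from 26.9 ± 4.88 to 9.49 ± 2.49 CPM (edgeR adjusted p = 0.0214). Cxcl12, the ligand of CXCR4, rose from 110.7 ± 5.64 to 192.0 ± 8.09 CPM (edgeR adjusted p = 0.0161). Cxcl13, which attracts B cells to lymphoid follicles, rose by 2.41 ± 0.49 on the log2 scale (edgeR adjusted p = 0.0335), or 1.77 without bleomycin replicate 1. The scavengers Ackr2 and Ackr3, chosen after their values were seen, lay above both controls in both bleomycin libraries. Ackr2 was at 4.93 ± 1.81 CPM in bleomycin and 1.62 ± 0.611 CPM in control (edgeR adjusted p = 0.0553) and Ackr3 at 187.8 ± 16.8 CPM in bleomycin and 156.2 ± 11.3 CPM in control (edgeR adjusted p = 0.175). Neither had lower values in bleomycin as Ackr4 had.

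Among 10 tested genes of lymphoid tissue organisation, 2 rose and 8 were not called, with a median log2 change of 0.39. Vcam1, the adhesion molecule of activated endothelium and lymphoid stroma, rose from 62.7 ± 8.42 to 150.9 ± 15.2 CPM (edgeR adjusted p = 0.0130). Relb, a subunit of the non-canonical NF-kappaB pathway that drives Ccl19 and Ccl21 in mouse lymphoid stroma, rose from 11.4 ± 0.3996 to 19.6 ± 1.03 CPM (edgeR adjusted p = 0.0252). Its partner Nfkb2 was at 71.6 ± 7.35 CPM in bleomycin and 51.8 ± 2.29 CPM in control (edgeR adjusted p = 0.0512). Of 9 tested genes of CCR7 signalling and leukocyte motility, Arrb1, an arrestin gene, fell from 97.3 ± 7.45 to 49.4 ± 5.95 CPM (edgeR adjusted p = 0.0165) and the other 8 were not called. Those included Arrb2, a second arrestin, at 44.5 ± 3.74 CPM in bleomycin and 36.4 ± 1.70 CPM in control (edgeR adjusted p = 0.136), and St8sia4, which adds polysialic acid to CCR7 in mice, at 31.3 ± 4.03 CPM in bleomycin and 24.5 ± 4.12 CPM in control (edgeR adjusted p = 0.192).

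**Figure D4:**
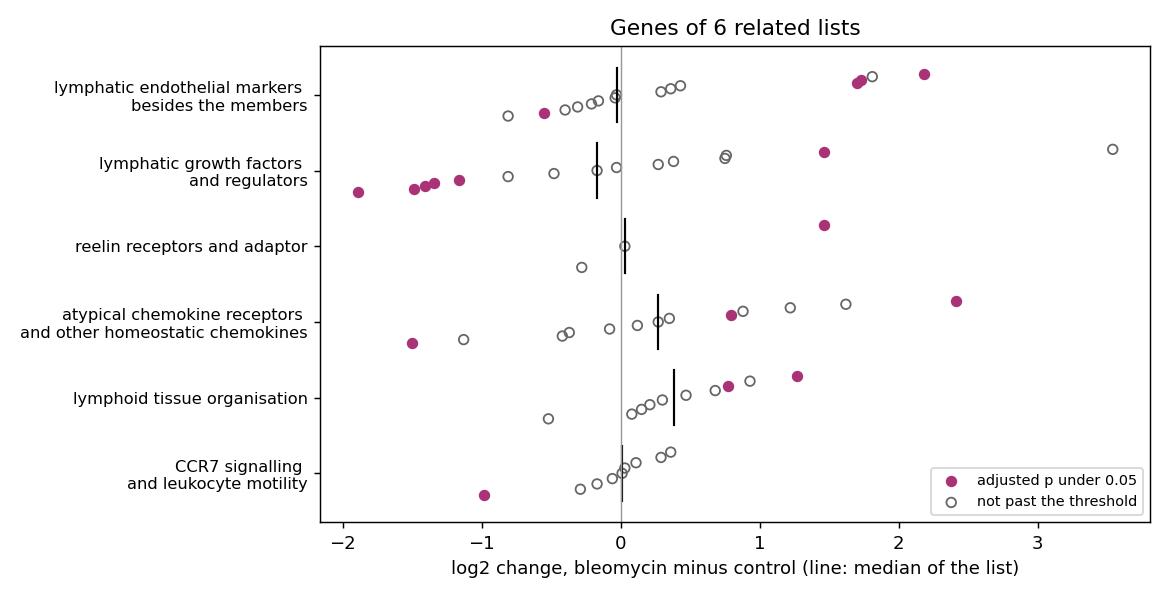
Log2 change of bleomycin over control (horizontal axis) of the tested genes in 6 lists; filled points passed edgeR's adjusted p of 0.05, open points did not, and vertical lines are list medians. Points lie on both sides of 0 in all 6 lists, with medians from -0.17 to 0.39.

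The cells that carry CCR7 are chiefly mature dendritic cells, naive and memory T cells and B cells. Of 13 dendritic cell markers, 6 rose and 7 were not called, with a median log2 change of 0.63. Cd83, a marker of mature dendritic cells, rose from 18.7 ± 0.0960 to 39.9 ± 3.43 CPM (edgeR adjusted p = 0.0129), and Fscn1, Ccl22, Ccl17, Cd80 and Cd86 were the others that rose. The 7 not called were Flt3, Zbtb46, Xcr1, Clec9a, Batf3, Cd40 and Lamp3. Their log2 changes ran from -0.57 for Zbtb46 (edgeR adjusted p = 0.0507) to 0.63 for Batf3 (edgeR adjusted p = 0.205). Lamp3, which alveolar type 2 cells also express, was at 505.1 ± 132 CPM in bleomycin and 503.5 ± 15.01 CPM in control (edgeR adjusted p = 0.989) and made up most of the list's sum. That sum was 645.2 and 618.3 CPM in the controls and 616.3 and 784.3 CPM in the bleomycin libraries.

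Of 13 tested markers of naive and memory T cells, 3 fell, 1 rose and 9 were not called, with a median log2 change of -0.52. The sum was 430.9 and 458.0 CPM in the controls and 305.4 and 335.2 CPM in the bleomycin libraries. Most of it in the controls came from Klf2, at 260.8 and 260.7 CPM, against 106.1 and 145.0 CPM in the bleomycin libraries. The lower sum can therefore not be assigned to T cells. Klf2, a transcription factor of quiescent T cells and of endothelium, fell from 260.8 ± 0.0478 to 125.6 ± 27.5 CPM (edgeR adjusted p = 0.0222). Cd4, which rat macrophages also carry, rose from 65.8 ± 7.78 to 105.9 ± 2.22 CPM (edgeR adjusted p = 0.0251). Of 7 tested B cell markers, 3 fell and 4 were not called, with a median of -1.17. Cd79b, a subunit of the B cell receptor, fell from 18.4 ± 1.36 to 8.35 ± 2.21 CPM (edgeR adjusted p = 0.0300), and Cd37, a tetraspanin of B cells and other leukocytes, was at 40.0 ± 3.40 CPM in bleomycin and 35.5 ± 7.13 CPM in control (edgeR adjusted p = 0.502). The B cell sum was 82.0 and 99.3 CPM in the controls and 65.1 and 65.9 CPM in the bleomycin libraries. The part of these cells in the Ccr7 and Ccl21 results was not tested.

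Lymph node tissue in the sample would also bring Ccl19, Ccl21 and Ccr7. Of 7 markers of lymph node stroma and high endothelial venules, Fdcsp had no count in any library, Madcam1 had 2 or 3 counts in each, Cr2 fell and the other 4 were not called. The summed level was 17.9 and 18.2 CPM in the controls and 27.8 and 14.7 CPM in the bleomycin libraries, which enclose the controls. Chst4, a sulfotransferase of high endothelial venules, was at 3.86 ± 0.157 CPM in bleomycin and 4.68 ± 0.315 CPM in control (edgeR adjusted p = 0.382), and Fcer2, a receptor of B cells and follicular dendritic cells, at 9.92 ± 6.20 CPM in bleomycin and 4.92 ± 1.27 CPM in control (edgeR adjusted p = 0.209).

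The genes whose profile over the 4 libraries lay closest to that of a member were sought among 12221 other genes whose log2 CPM averaged 1 or more. The measure was the Euclidean distance between log2(CPM + 0.5) values centred on their mean. Closest to Ackr4 were Nkx2-8 at a distance of 0.232, Sstr1 at 0.295 and Serpinb10 at 0.364. Serpinb10 had 66.1 and 64.5 CPM in the controls and 8.66 and 9.96 CPM in the bleomycin libraries. Nkx2-8 and Sstr1 were under 0.5 CPM in both bleomycin libraries, where the added 0.5 shrinks a fall. Without it their log2 changes were -4.37 and -3.87, larger falls than the -3.16 of Ackr4. Closest to Prox1 were Atp8b1 at 0.0241, Steap2 at 0.0394 and Bhlha15 at 0.0419. Closest to Ccr7 were Mettl15 at 0.0283, Hexim2 at 0.0301 and Rgl2 at 0.0389. With 4 libraries such distances are a description only.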

How the data were processed

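Gene counts were used as deposited by the authors, 1 file per library, raw and not normalized. The submitters' processing notes name HISAT2, fastp 0.18.0, CASAVA 1.8, DESeq2 and StringTie 1.3.1 and the rat build Rnor_6.0, without roles or settings. The FPKM values deposited beside the counts were scaled to each library's summed counts (count per FPKM in control replicate 2 over control replicate 1 had a median of 1.255, the ratio of their totals) and were used for levels between genes only.

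Counts were analysed with edgeR 4.0.16 in R 4.3.3: filterByExpr (minimum count 10 in 2 libraries and 15 in all), TMM scaling and the robust quasi-likelihood F test with group as the only term, with Benjamini-Hochberg adjustment over 15709 genes and a threshold of 0.05. CPM use TMM-scaled library sizes. The standard error is the unshrunken log2 change divided by the square root of F. Members and gene lists were chosen with earlier results of these data known. The genes named were the 8 members, up to 3 genes with the smallest p from each of 6 pathway lists, the 2 genes with the highest mean CPM from each of 11 cell type lists, and the 3 nearest profiles. Listed symbols not matched in the files, and single values of some listed T and B cell markers, are not reported here. RefSeq names and sequences are of GRCr8, a build other than that of the files, so gene coordinates of the files are not given. Replicates were not copies: the controls differed by 22.6 times and the bleomycin pair by 97.4 times the sampling variance. That libraries are from separate rats is per the labels.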

Additional observations from a re-analysis of the deposited data

How the results depend on the processing

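The log2 changes of the 8 members moved by less than the spread between replicates under RLE size factors, total counts only, no filter on low counts, the DESeq2 Wald test, the replicate block and FPKM means. With 1 library left out of 2 that comparison could not fail, so only the values bear on it: Ccr7 ranged from -0.34 to 0.01. With both controls and both bleomycin libraries 1455 genes were called higher and 1223 lower. With 1 library left out these counts ranged from 9 to 2749 and from 6 to 2612, and those of the pathway genes from 0 to 18 and from 0 to 14, against 9 and 8 with all libraries. The low ends came without either control, when the lone control is assumed to vary like the bleomycin pair, and the high ends without bleomycin replicate 2. The cause of the rise without that library was not tested. Of the 40 named genes that are not members 23 were called by edgeR with all 4 libraries, and none of these was called without control replicate 1 or without control replicate 2. The labels number replicates 1 and 2 in both groups but do not say that a number marks a shared animal or day, and deviations of same-numbered libraries had a Pearson r of -0.0417 across genes. With the replicate block 1329 genes were called higher and 1100 lower, and 11 and 6 pathway genes. The 2 rats per group limit every comparison, and Ccl19 had the fewest counts of the members, 66 to 103 per library.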
